A study of Mus musculus with 9 samples.

Results

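Liver RNA of db/db mice given FGF19WT was compared with liver RNA of db/db mice given vehicle, across all genes. The libraries were chosen by their titles and column headers: 3 titled FGF19WT and 3 titled vehicle, 6 of the 9 libraries in the series. The db/db genotype, shared by every group, removes the working leptin receptor, and such mice overeat and become obese and diabetic. Vehicle mice received PBS and the others FGF19WT, in both cases over 12 weeks, after which liver was taken. The remaining 3 libraries, from db/db mice given the variant FGF19ΔKLB, entered the model only to help estimate the spread. Sex, age, dose and route are not given in the sources used here. The tissue was whole liver, so each library mixes hepatocytes with all other liver cells, and no mice with a working leptin receptor are among the groups. Whether the 3 libraries of a group came from separate mice is not stated, so p-values measure only the spread between these samples, which may be technical.

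FGF19 is a human hormone of the ileum, released when bile acids arrive there, and its mouse counterpart is Fgf15. On hepatocytes it binds the receptor tyrosine kinase FGFR4 together with the co-receptor β-klotho, the product of Klb. The receptor signals through FRS2, GRB2 and the ERK kinases, and the best known hepatic response is repression of Cyp7a1 and Cyp8b1, enzymes of bile acid synthesis. Excess FGF19 is also known to drive hepatocyte division and liver tumours in mice, which is the concern named in the title of the series. FGF19WT stands in the labels for the unmodified form, and its comparison with vehicle asks what that form did to the liver transcriptome.

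Total counts were 65.1 to 73.3 M per library, which stand for about 16.3 to 18.3 M read pairs because low counts piled up at multiples of 4. Levels below are CPM, counts scaled to the library total with edgeR's TMM factors, and 3 values in a row always follow libraries 1, 2 and 3 of a group. Differences between groups are log2 fold changes, FGF19WT minus vehicle, with standard errors from edgeR's quasi-likelihood fit over 18142 genes. A gene is said to have risen or fallen only at a Benjamini-Hochberg adjusted p under 0.05. A gene lay wholly above or wholly below vehicle where all 3 FGF19WT libraries were higher or lower than all 3 vehicle libraries. Hepatocyte markers were abundant in every library, with a summed level of 162176, 191758 and 132328 CPM in vehicle and 240529, 132333 and 141836 CPM with FGF19WT, so the liver label holds. Of 10 fat cell markers 5 passed the low-count filter, not among them Adipoq, Lep and Plin1, and their summed level was 2725, 2524 and 1693 CPM in vehicle and 1909, 230.3 and 202 CPM with FGF19WT. Most of that sum was Car3, which hepatocytes also express, and library medians of the log2 difference from vehicle were −0.19, −2.87 and −3.51. Of 10 pancreas markers 1 passed, Cela1, which lay wholly above vehicle at 7.44, 7.51 and 6.69 CPM in vehicle and 12.4, 55.6 and 55.03 CPM with FGF19WT.

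The FGF19WT libraries differed among themselves. Across the 18142 genes, Spearman's rho between pairs of vehicle libraries was 0.974 to 0.977, and FGF19WT library 1 correlated with them at 0.966 to 0.968. FGF19WT libraries 2 and 3 correlated with vehicle at 0.878 to 0.905, with FGF19WT library 1 at 0.913 and 0.892, and with each other at 0.966. These are descriptions across genes, which are not independent replicates. FGF19WT library 1 lay within the vehicle range in 44.5% of genes, library 2 in 25.4% and library 3 in 21.4%. Library 1 lay above all 3 vehicle libraries in 28.3% of genes and below them in 27.2%. Library 2 lay above in 36.3% and below in 38.3%, and library 3 above in 37.9% and below in 40.7%. In 1284 genes library 1 lay above all vehicle libraries while libraries 2 and 3 lay below all of them, and in 1026 genes it was the other way round. A further 2041 genes had library 1 within the vehicle range and the other two below it, and 1990 had library 1 within and the other two above. Values are therefore given by library.

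**Figure D1:**
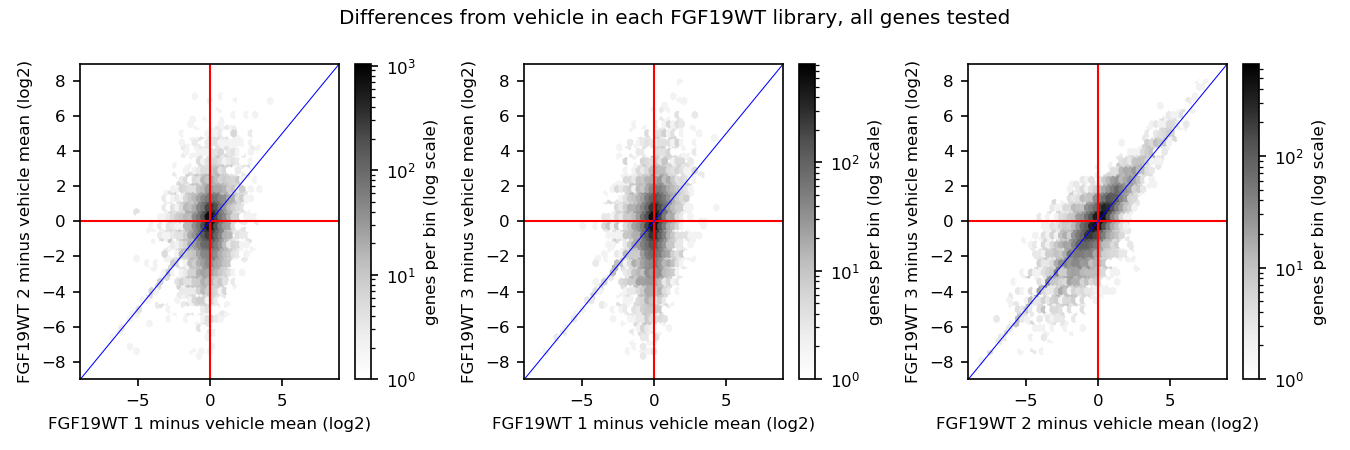
Each panel plots, for 18142 genes, the log2 difference of one FGF19WT library from the vehicle mean against that of another, as hexagons coloured by the number of genes; red lines mark no difference, the blue line marks equal values, and 21 genes lie beyond the axes. Libraries 2 and 3 follow the line of equal values (rho of their levels 0.966), whereas library 1 against either of them spreads into all 4 quadrants.

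Of the 18142 genes, 20 passed the test, which is 0.11% of those tested. Of these, 5 rose, 0.0276% of the genes, and 15 fell, 0.0827%. At an unadjusted p under 0.05, 2130 genes were higher, 11.7%, and 1282 were lower, 7.07%. Counted without a test, 1994 genes lay wholly above vehicle, 11%, and 2105 lay wholly below, 11.6%, together 4099 genes or 22.6%. The median log2 fold change of all genes was −0.0049. Other tools called more, 1743 genes in DESeq2's Wald test, 1141 higher and 602 lower, and 69 and 45 in limma on log2(FPKM + 1) and log2(FPKM + 0.1). Counts for each gene list below are to be read beside these shares and numbers over all genes. The counts of edgeR depended on single libraries. Without FGF19WT library 1 the fit called 5221 genes, among them all 20. Without FGF19WT library 2 it called 1, Gm2788. Without vehicle library 3 it called 3, Clstn3, Gm47287 and Gm10095, of which Clstn3 is among the 20. Without vehicle library 1 it called 1, Adnp, and without FGF19ΔKLB library 1 it called 1, Fam124a, neither of them among the 20. Without vehicle library 2, FGF19WT library 3, FGF19ΔKLB library 2 or FGF19ΔKLB library 3, edgeR called 0 genes, while 2184 to 3303 genes were at an unadjusted p under 0.05. No other test was run on those reduced sets. With FGF19WT libraries 2 and 3 both left out, so that library 1 stood alone and was assumed to vary like the other groups, 20 genes were called, and 3 of them, Gm2788, Blnk and Cidec, were shared with the full fit.

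**Figure D2:**
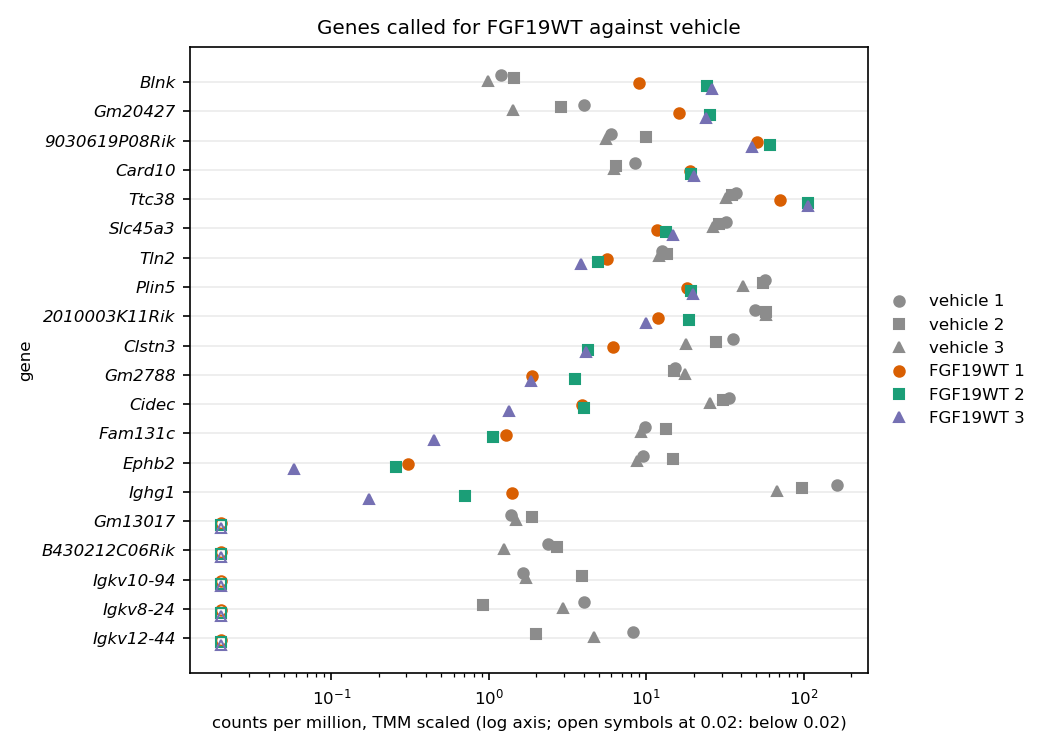
Level of the 20 called genes in CPM on a log axis, one row a gene and one symbol a library, with open symbols at 0.02 for values below 0.02. In the 5 genes that rose every FGF19WT library is to the right of every vehicle library, and in the 15 that fell every FGF19WT library is to the left.

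The 5 genes that rose are a set of mixed function. Ttc38 (ENSMUSG00000035944, chromosome 15, 85832306 to 85858822), a protein with tetratricopeptide repeats, stood at 37.04, 34.96 and 32 CPM in vehicle and at 70.2, 106 and 106 CPM with FGF19WT (log2 fold change 1.44, SE 0.19, adjusted p = 0.0478). Card10 (chromosome 15, 78775138 to 78803042), a scaffold that links receptors to NF-κB, stood at 8.53, 6.46 and 6.24 CPM in vehicle and at 18.9, 19.1 and 20.1 CPM with FGF19WT (log2 fold change 1.45, SE 0.17, adjusted p = 0.0406). The 3 FGF19WT libraries agreed closely for Card10, whereas for Ttc38 library 1 was between vehicle and the other two. Blnk (chromosome 19, 40928927 to 40994535), an adaptor best known from B cell receptor signalling, stood at 1.19, 1.45 and 0.985 CPM in vehicle and at 9.03, 24.2 and 26.3 CPM with FGF19WT (log2 fold change 4.04, SE 0.42, adjusted p = 0.0406). Library 1 carried the smallest increase, and with library 1 alone Blnk was still called (log2 fold change 2.90, adjusted p = 0.0233). The remaining genes are not protein coding. 9030619P08Rik (chromosome 15, 75427606 to 75431829), a transcribed unprocessed pseudogene, stood at 5.93, 10.01 and 5.54 CPM in vehicle and at 50.03, 60.96 and 46.8 CPM with FGF19WT (log2 fold change 2.88, SE 0.29, adjusted p = 0.0406). Gm20427 (chromosome 17, 34026034 to 34031580), a processed transcript that overlaps Slc39a7 and H2-Ke6 on the same strand, stood at 4.02, 2.86 and 1.42 CPM in vehicle and at 16.03, 25.3 and 23.9 CPM with FGF19WT (log2 fold change 2.98, SE 0.40, adjusted p = 0.0478). Reads of Gm20427 cannot be told apart from reads of the genes it overlaps. None of the 5 overlapped between groups, and all 5 were higher in each of the 3 FGF19WT libraries.

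Genes of the lipid droplet, the organelle that stores triglyceride in the steatotic db/db liver, form the only one of the 58 gene lists with 3 called members. List members were chosen with earlier results of these data known, so this rank among lists is a description and not a test. Its proteins coat the droplet, fuse droplets or hold lipases at its surface. Of 16 listed genes 15 were tested, 3 fell, 6 lay wholly below vehicle and 1 wholly above, and the median log2 fold change was −0.41. The library medians were −0.42, −0.13 and −0.62, beside 0.11, 0.15 and −0.44 in vehicle. Cidec and Plin4 are also among the 5 fat cell markers measured, and what part fat cells have in these values was not tested. Clstn3, a calsyntenin with a form found at droplets, Cidec, which fuses droplets into larger ones, and Plin5, which joins droplets to mitochondria and is induced by fatty acids through PPARα, were the called members.

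Plin5 (ENSMUSG00000011305, chromosome 17, 56111601 to 56117596) stood at 56.3, 55.2 and 41.3 CPM in vehicle and at 17.99, 19.2 and 19.7 CPM with FGF19WT (log2 fold change −1.42, SE 0.16, adjusted p = 0.0406). The 3 FGF19WT libraries lay close together, well under the lowest vehicle library. Cidec (ENSMUSG00000030278, chromosome 6, 113424634 to 113435760) stood at 33.6, 30.5 and 25.3 CPM in vehicle and at 3.93, 4.01 and 1.35 CPM with FGF19WT (log2 fold change −3.27, SE 0.41, adjusted p = 0.0471). With FGF19WT library 1 alone Cidec was still called (log2 fold change −2.92, adjusted p = 0.0387), and Plin5 was not (log2 fold change −1.500, adjusted p = 0.109). Clstn3 (chromosome 6, 124430759 to 124464794) stood at 35.6, 27.8 and 17.8 CPM in vehicle and at 6.18, 4.24 and 4.15 CPM with FGF19WT (log2 fold change −2.48, SE 0.29, adjusted p = 0.0406). Vehicle itself spread widely for Clstn3, yet its lowest library stayed above the highest FGF19WT library.

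The promoters of the Plin5 and Cidec genes are printed because both transcripts fell and were lower in all 3 FGF19WT libraries; capitals mark AGGTCA on either strand, the half-site letters bound by nuclear receptors such as PPARα. They run from 250 bases before to 50 bases after the start site, 5′ to 3′ on the minus strand, from RefSeq on GRCm38.p6 at chr17:56117499-56117798 and chr6:113435711-113436010.
Plin5: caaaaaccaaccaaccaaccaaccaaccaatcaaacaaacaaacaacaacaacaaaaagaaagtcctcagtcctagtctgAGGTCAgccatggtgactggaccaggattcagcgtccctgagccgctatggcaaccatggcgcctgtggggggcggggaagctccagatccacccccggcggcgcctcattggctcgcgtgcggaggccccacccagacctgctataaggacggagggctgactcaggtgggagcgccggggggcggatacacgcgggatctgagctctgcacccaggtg
Cidec: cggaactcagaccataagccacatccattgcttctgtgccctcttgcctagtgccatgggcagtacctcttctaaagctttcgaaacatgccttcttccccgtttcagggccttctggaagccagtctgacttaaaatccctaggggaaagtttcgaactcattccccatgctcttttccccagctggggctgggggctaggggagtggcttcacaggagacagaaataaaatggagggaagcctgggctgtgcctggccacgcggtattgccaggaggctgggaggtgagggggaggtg
The Plin5 window holds 1 match, starting 170 bases before the start site, and the Cidec window holds 0. Over the 15 lipid droplet genes with a promoter in the RefSeq set, 3 held the letters, 20.0%, against 5340 of all 32851 promoters, 16.3%. Each listed gene gave only the promoter nearest its annotated start, whereas the full set holds every promoter, so the shares compare unlike sets. A match is a description of letters and says nothing of binding.

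Other droplet genes did not pass the test. Cidea, a relative of Cidec that is switched on in fatty liver, stood at 11.2, 3.89 and 2.93 CPM in vehicle and at 0.0879, 0 and 0 CPM with FGF19WT (adjusted p = 0.107). Plin4, another coat protein, stood at 128, 195 and 103 CPM in vehicle and at 54.8, 6.39 and 4.02 CPM with FGF19WT (adjusted p = 0.204). Both lay wholly below vehicle. Fitm2, which helps droplets bud from the endoplasmic reticulum, also lay wholly below, at 51.5, 62.8 and 41.1 CPM in vehicle and 31.1, 36.4 and 25.2 CPM with FGF19WT (adjusted p = 0.133). Plin2, the most abundant hepatocyte coat protein, overlapped between groups at 533, 752 and 426 CPM and 423, 1197 and 467 CPM (log2 fold change 0.29, SE 0.41, adjusted p = 0.723). Pnpla2, the adipose triglyceride lipase, overlapped too, at 57.1, 66.8 and 63.9 CPM in vehicle and 59.7, 86.6 and 125 CPM with FGF19WT. Abhd5, the activator of that lipase, lay wholly above vehicle by a small margin, at 26.2, 26.7 and 27.6 CPM in vehicle and 28.8, 31.6 and 34.2 CPM with FGF19WT (adjusted p = 0.444).

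Antibody transcripts made up 4 of the 15 genes that fell. Ighg1 (ENSMUSG00000076614, chromosome 12, 113325240 to 113330523), the constant region of an IgG heavy chain, stood at 162, 97.8 and 67.5 CPM in vehicle and at 1.41, 0.703 and 0.174 CPM with FGF19WT (log2 fold change −7.16, SE 0.89, adjusted p = 0.0471). Igkv10-94, Igkv12-44 and Igkv8-24, variable segments of the kappa light chain, had counts in all vehicle libraries and 0 in every FGF19WT library. Igkv10-94 stood at 1.64, 3.88 and 1.71 CPM in vehicle (adjusted p = 0.0406). Its vehicle mean was 14.5-fold higher than a floor of 12 counts (3 read pairs) per FGF19WT library. Igkv12-44 stood at 8.17, 1.99 and 4.67 CPM in vehicle, a mean 29.8-fold above the same floor. Igkv8-24 stood at 4.03, 0.922 and 2.94 CPM in vehicle, a mean 15.9-fold above it. For vehicle libraries below the mean the fold is smaller. Variable segments are near-identical to each other, so their reads could be split between copies. Across these classes, 67 of 86 tested variable segment genes and 6 of 11 constant region genes lay wholly below vehicle, and 0 of either class lay wholly above. Over all genes 11% lay wholly above and 11.6% wholly below. Segments could pass the low-count filter through their counts outside FGF19WT alone, so these counts were partly set by the filter. Segments are also not independent members, and the counts are not a test.

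The summed level of B and plasma cell markers was lower as well. It was 409, 217 and 171 CPM in vehicle and 41.1, 30.97 and 30.5 CPM with FGF19WT, and of 11 tested members 4 lay wholly below vehicle and 1, Blnk, above. The library medians of those members were 0.38, −2.48 and −3.11, so that in library 1 the median member was not lower. Igkc, the kappa constant region, stood at 189, 95.8 and 79.8 CPM in vehicle and 9.54, 2.9 and 2.23 CPM with FGF19WT (log2 fold change −4.63, SE 0.70, adjusted p = 0.0685). Jchain, which joins secreted IgA and IgM, stood at 44.6, 10.4 and 13.2 CPM in vehicle and 2.61, 0.654 and 0.0581 CPM with FGF19WT (adjusted p = 0.127). Those genes belong to antibody-secreting cells. Mature B cell markers did not share that pattern in FGF19WT library 1: Ms4a1, which encodes CD20, stood at 0.307, 0.278 and 0.371 CPM in vehicle and 0.996, 0.148 and 0.0581 CPM with FGF19WT, and Ighm, the IgM heavy chain, at 6.92, 7.497 and 6.54 CPM in vehicle and 11.9, 1.36 and 0.784 CPM with FGF19WT. In whole liver, fewer cells of a type and less RNA per cell cannot be told apart, here and for every cell type below.

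The other 8 genes that fell have no common function. Ephb2 (chromosome 4, 136647539 to 136835988), a receptor for ephrin ligands, stood at 9.48, 14.7 and 8.75 CPM in vehicle and at 0.308, 0.259 and 0.0581 CPM with FGF19WT (log2 fold change −5.70, SE 0.67, adjusted p = 0.0406). Fam131c (chromosome 4, 141368220 to 141384175) stood at 9.83, 13.4 and 9.26 CPM in vehicle and at 1.29, 1.06 and 0.4499 CPM with FGF19WT (log2 fold change −3.53, SE 0.45, adjusted p = 0.0471). In both genes library 3 was the lowest of the FGF19WT libraries. Slc45a3 (chromosome 1, 131962967 to 131982969), a sugar transporter family member, stood at 32.04, 29.1 and 26.6 CPM in vehicle and at 11.8, 13.3 and 14.8 CPM with FGF19WT (log2 fold change −1.14, SE 0.15, adjusted p = 0.0478). Tln2 (chromosome 9, 67217087 to 67559703), a talin that links integrins to actin, stood at 12.6, 13.6 and 12.1 CPM in vehicle and at 5.61, 4.92 and 3.85 CPM with FGF19WT (log2 fold change −1.41, SE 0.19, adjusted p = 0.0478). Those 2 changes were small and even across the 3 FGF19WT libraries. 2010003K11Rik (chromosome 19, 4496788 to 4498583), a protein coding gene, stood at 48.8, 57.5 and 57.9 CPM in vehicle and at 11.9, 18.7 and 9.91 CPM with FGF19WT (log2 fold change −2.02, SE 0.27, adjusted p = 0.0478). Gm2788 (chromosome 7, 48877958 to 48910156), a processed transcript that overlaps Nav2 on the same strand and E2f8 on the other, stood at 15.2, 14.99 and 17.5 CPM in vehicle and at 1.89, 3.52 and 1.84 CPM with FGF19WT (log2 fold change −2.71, SE 0.28, adjusted p = 0.0406). With FGF19WT library 1 alone Gm2788 was still called (log2 fold change −3.07, adjusted p = 0.00797). Gm13017 (chromosome 4, 140391148 to 140396604), a long intergenic RNA at 1.39, 1.87 and 1.48 CPM in vehicle, had 0 counts in every FGF19WT library (adjusted p = 0.0406). Its vehicle mean was 9.53-fold above the floor. B430212C06Rik stood at 2.36, 2.71 and 1.25 CPM in vehicle and 0 with FGF19WT (adjusted p = 0.0471), its vehicle mean 12.7-fold above the floor. It lies across Cidea on the opposite strand, and whether the counting used strand is not stated, so its reads cannot be told apart from those of Cidea.

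The genes that receive the FGF19 signal differed by library. Of 10 genes for receptors, co-receptor and adaptors, 0 passed the test in edgeR, and 0 lay wholly above and 1 wholly below vehicle. That 10% below is near the 11.6% of all genes. At an unadjusted p under 0.05 in edgeR 0 were higher and 0 lower, DESeq2's Wald test called 0 higher and 0 lower, and limma called 0. The library medians were 0.10, −0.35 and −0.50, with 2, 6 and 7 of the 10 genes below all vehicle libraries. Fgfr4, the main hepatocyte receptor, stood at 36.9, 36.5 and 36.4 CPM in vehicle and at 34.05, 32.7 and 33.6 CPM with FGF19WT (log2 fold change −0.13, SE 0.16, adjusted p = 0.675). Although the groups did not overlap for Fgfr4, the values differed by a few CPM. Klb, the co-receptor, stood at 24.3, 29.2 and 19.8 CPM in vehicle and at 27.4, 10.98 and 10.01 CPM with FGF19WT (log2 fold change −0.60, SE 0.39, adjusted p = 0.425). FGF19WT library 1 lay within the vehicle range for Klb, and libraries 2 and 3 lay below it. Fgfr2, a receptor usually low in hepatocytes, stood at 14.8, 13.6 and 15.2 CPM in vehicle and at 53.3, 3.76 and 2.82 CPM with FGF19WT, above vehicle in library 1 and below it in the others. Among the adaptors, Frs2 stood at 16.8, 15.5 and 17.3 CPM in vehicle and 15.3, 15.8 and 17.8 CPM with FGF19WT. Grb2 stood at 36.2, 39.6 and 40.95 CPM in vehicle and 41.96, 40.6 and 41.5 CPM with FGF19WT, and overlapped like Frs2. Gab1 stood at 10.5, 11.9 and 10.6 CPM in vehicle and 12.3, 11.8 and 11.7 CPM with FGF19WT.

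ERK feedback genes, which dampen the pathway and are read as its transcriptional output, stood higher. Of 18 listed genes 17 were tested, 0 passed the test in edgeR, 8 lay wholly above and 1 wholly below vehicle, and the median log2 fold change was 1.72. The median log2 difference from the vehicle mean was 0.64, 2.15 and 1.86 in FGF19WT libraries 1, 2 and 3. DESeq2's Wald test called 10 higher and 0 lower, limma called 0, and at an unadjusted p under 0.05 in edgeR 11 were higher and 0 lower. Etv5, an ETS transcription factor induced by FGF, stood at 2.78, 1.698 and 3.39 CPM in vehicle and at 7.97, 14.1 and 10.2 CPM with FGF19WT (log2 fold change 2.04, SE 0.32, adjusted p = 0.0752). Dusp6, a phosphatase that inactivates ERK, stood at 24.9, 20.4 and 19.1 CPM in vehicle and at 38.9, 94.8 and 77.7 CPM with FGF19WT (log2 fold change 1.72, SE 0.30, adjusted p = 0.0924). Egr1, an immediate early transcription factor, stood at 13.3, 12.5 and 15.9 CPM in vehicle and at 41.02, 128 and 172 CPM with FGF19WT (log2 fold change 3.03, SE 0.54, adjusted p = 0.0924). For these genes library 1 was above every vehicle library but below libraries 2 and 3. Spred2, an inhibitor of RAF activation, followed the same order, at 8.38, 7.26 and 7.24 CPM in vehicle and 11.9, 36.9 and 34.05 CPM with FGF19WT (adjusted p = 0.123). Spry4, another feedback inhibitor, was highest in library 1, at 9.71, 3.397 and 6.29 CPM in vehicle and 37.1, 8.77 and 7.69 CPM with FGF19WT (adjusted p = 0.249). Fos and Jun, early genes that mark recent stimulation, overlapped between groups, at 2.74, 1.38 and 3.697 CPM and 1.95, 2.42 and 1.15 CPM for Fos.

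Bile acid synthesis, the textbook target of FGF19, gave calls that depended on the tool. Of 14 tested genes 0 passed in edgeR, 2 lay wholly above and 3 wholly below vehicle, and the library medians were −0.32, −0.065 and 0.41. Those counts are 14.3% above and 21.4% below, against 11% and 11.6% of all genes. At an unadjusted p under 0.05 in edgeR 3 were higher and 3 lower, DESeq2's Wald test called 3 higher and 3 lower, and limma called 0 higher and 1 lower with a pseudocount of 1 and 0 with 0.1. Cyp8b1 (ENSMUSG00000050445, chromosome 9, 121914356 to 121916305), the sterol 12α-hydroxylase that sets the cholic acid share, stood at 219, 311 and 136 CPM in vehicle and at 5.71, 1.21 and 0.885 CPM with FGF19WT (log2 fold change −6.42, SE 1.44, adjusted p = 0.125). All 3 FGF19WT libraries were far below vehicle. In limma the adjusted p of Cyp8b1 was 0.0282 with a pseudocount of 1 and 0.0617 with 0.1. Cyp7a1 (ENSMUSG00000028240, chromosome 4, 6265612 to 6275633), the rate-limiting 7α-hydroxylase, stood at 84.9, 103 and 70.1 CPM in vehicle and at 3.66, 83.4 and 118 CPM with FGF19WT (log2 fold change −0.33, SE 0.87, adjusted p = 0.857). Only FGF19WT library 1 lay below vehicle for Cyp7a1, while library 2 was within the vehicle range and library 3 above it. With FGF19WT libraries 2 and 3 left out, Cyp7a1 was called lower (log2 fold change −4.55, adjusted p = 0.0155) and Cyp8b1 was not (log2 fold change −5.28, adjusted p = 0.787). Cyp7b1, the hydroxylase of the alternative pathway, stood at 12.7, 14.7 and 12.1 CPM in vehicle and at 12.9, 15.2 and 30.4 CPM with FGF19WT (adjusted p = 0.34). Library 1 lay within the vehicle range for Cyp7b1, library 2 just above it and library 3 well above it.

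Later steps and transport varied by gene. Baat, which conjugates bile acids to taurine, lay wholly below vehicle, at 247, 237 and 281 CPM in vehicle and 176, 48.2 and 43.1 CPM with FGF19WT (adjusted p = 0.17). Cyp2c70, which makes muricholic acids in mice, lay wholly above, at 184, 161 and 253 CPM in vehicle and 433, 299.8 and 367 CPM with FGF19WT (adjusted p = 0.143). Cyp39a1, which hydroxylates 24-hydroxycholesterol, lay wholly above at 22.7, 23.9 and 15.9 CPM in vehicle and 28.04, 55.1 and 54.99 CPM with FGF19WT (adjusted p = 0.142). Of 16 tested genes of bile acid transport and sensing, 0 passed in edgeR, and 1 lay wholly above and 1 wholly below vehicle. Each is 6.25%, under the 11% and 11.6% of all genes. DESeq2's Wald test called 1 higher and 0 lower, limma called 0, and at an unadjusted p under 0.05 in edgeR 2 were higher and 1 lower. Abcc4, a basolateral exporter that is low in healthy liver, stood at 4.74, 4.23 and 3.51 CPM in vehicle and at 7.05, 107 and 147 CPM with FGF19WT (log2 fold change 4.39, SE 0.93, adjusted p = 0.125). Libraries 2 and 3 were far above every vehicle library for Abcc4, and library 1 was slightly above. Slc10a1, the sodium-dependent uptake carrier, stood at 665, 845 and 702 CPM in vehicle and at 909, 166 and 161 CPM with FGF19WT (adjusted p = 0.479). Abcb11, the canalicular bile salt export pump, overlapped between groups at 333, 181 and 329 CPM and 233, 249.6 and 417 CPM (log2 fold change 0.093, SE 0.35, adjusted p = 0.901). Among the sensors, Nr1h4, which encodes FXR, stood at 133, 192 and 156 CPM in vehicle and 164, 36.2 and 45.8 CPM with FGF19WT (adjusted p = 0.345). Its target Nr0b2, which encodes SHP, overlapped between groups, at 34.7, 11.1 and 41.5 CPM and 49.3, 29.5 and 31.7 CPM (adjusted p = 0.679).

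**Figure D3:**
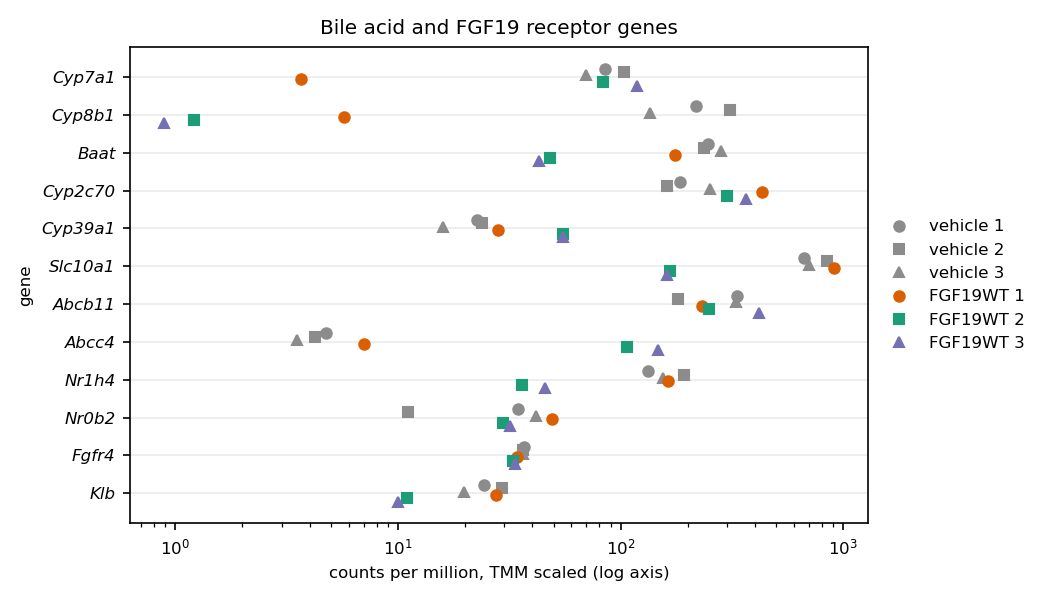
Levels in CPM (log axis) of 12 genes of bile acid synthesis, transport, sensing and reception, one row a gene and one symbol a library. Cyp8b1 is below vehicle in all 3 FGF19WT libraries, whereas Cyp7a1 is low only in library 1 at 3.66 CPM.

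Enzymes that make fatty acids had negative medians in all 3 FGF19WT libraries, none as low as that of vehicle library 1 against the other vehicle libraries. Of 14 tested genes of de novo lipogenesis 0 passed in edgeR, 0 lay wholly above and 2, 14.3%, wholly below vehicle, near the 11.6% of all genes. At an unadjusted p under 0.05 in edgeR 0 were higher and 3 lower, DESeq2's Wald test called 0 higher and 3 lower, and limma called 0. The library medians were −0.36, −0.70 and −0.66 with FGF19WT. The vehicle libraries themselves differed for this list, with medians of −0.99, 0.75 and 0.05 against the other vehicle libraries. Scd1, the stearoyl-CoA desaturase that supplies oleate, stood at 2841, 6168 and 5996 CPM in vehicle and at 1735, 1635 and 802 CPM with FGF19WT (log2 fold change −1.85, SE 0.48, adjusted p = 0.128). Acacb, an acetyl-CoA carboxylase whose product restrains fatty acid oxidation, stood at 50.1, 74.7 and 46.4 CPM in vehicle and at 33.1, 38.2 and 31.7 CPM with FGF19WT (adjusted p = 0.135). Both lay wholly below vehicle. Fasn, the fatty acid synthase, overlapped at 84, 379 and 199.5 CPM in vehicle and 155, 102 and 126 CPM with FGF19WT (adjusted p = 0.373), and vehicle library 1 was its lowest value. Srebf1, which encodes the insulin-driven regulator of these enzymes, overlapped at 51.6, 124 and 100.4 CPM and 140.01, 42.95 and 59.2 CPM (adjusted p = 0.851). Scd2, the desaturase usual outside the liver, went the other way and lay wholly above vehicle, at 0.3605, 2.97 and 9.33 CPM in vehicle and 15.1, 68.7 and 87.1 CPM with FGF19WT (adjusted p = 0.24). Elovl3, an elongase under circadian and androgen control, lay wholly below, at 26.7, 22.6 and 5.28 CPM in vehicle and 0.777, 0.234 and 1.35 CPM with FGF19WT (adjusted p = 0.125). In limma the adjusted p of Elovl3 was 0.0461 with a pseudocount of 1 and 0.0617 with 0.1.

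Triglyceride synthesis and fatty acid uptake had 20 tested genes, of which 0 passed in edgeR, 1 lay wholly above and 4 wholly below vehicle. DESeq2's Wald test called 2 higher and 3 lower, limma called 0 higher and 1 lower with a pseudocount of 1 and 0 with 0.1, and at an unadjusted p under 0.05 in edgeR 2 were higher and 4 lower. The library medians were −0.25, 0.08 and −0.29. Mogat1, a monoacylglycerol acyltransferase that is induced in steatosis, stood at 7.17, 6.94 and 4.78 CPM in vehicle and at 1.52, 0.543 and 0.203 CPM with FGF19WT (log2 fold change −3.06, SE 0.66, adjusted p = 0.125). In limma the adjusted p of Mogat1 was 0.00908 with a pseudocount of 1 and 0.0533 with 0.1. Cd36, a fatty acid carrier, stood at 196, 218 and 202 CPM in vehicle and at 149, 69.1 and 40.04 CPM with FGF19WT (log2 fold change −1.26, SE 0.41, adjusted p = 0.167). Each FGF19WT library was lower than every vehicle library for both. Pparg, a driver of lipid storage in fatty liver, overlapped at 21.5, 26.8 and 21.3 CPM and 17.8, 26.2 and 17.3 CPM (log2 fold change −0.18, SE 0.21, adjusted p = 0.655). Lpl, the lipoprotein lipase that adult hepatocytes make little of, stood at 14.6, 21.2 and 12.9 CPM in vehicle and at 20.1, 176 and 326 CPM with FGF19WT (adjusted p = 0.127), high in libraries 2 and 3 only.

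Fatty acid oxidation and ketogenesis had 22 tested genes, of which 0 passed in edgeR, 0 lay wholly above and 6, 27.3%, wholly below vehicle. Over all genes 11% lay wholly above and 11.6% wholly below. At an unadjusted p under 0.05 in edgeR 2 were higher and 6 lower, DESeq2's Wald test called 1 higher and 4 lower, and limma called 0. The median log2 fold change was −0.33, and the library medians were −0.52, −0.14 and −0.34. Library 1 had the lowest of those medians. Cpt1a, which admits fatty acids to mitochondria, stood at 552, 725 and 568 CPM in vehicle and at 430.2, 378 and 258 CPM with FGF19WT (log2 fold change −0.79, SE 0.24, adjusted p = 0.152). Cpt2, its partner at the inner membrane, stood at 158, 141 and 139 CPM in vehicle and at 87.5, 102 and 65.6 CPM with FGF19WT (adjusted p = 0.127). Both lay wholly below vehicle in all 3 FGF19WT libraries by modest amounts. Ppara, which encodes the receptor that drives them, was at 57.7, 74.5 and 45.3 CPM in vehicle and 56.6, 21.3 and 11.2 CPM with FGF19WT (adjusted p = 0.353), within the vehicle range in library 1. Of 24 nuclear respiratory chain genes 0 passed in edgeR, 1, 4.17%, lay wholly above and 7, 29.2%, wholly below vehicle. At an unadjusted p under 0.05 in edgeR 1 was higher and 6 lower, DESeq2's Wald test called 1 higher and 1 lower, and limma called 0. Uqcrc2, a core subunit of complex III, stood at 226, 258 and 228 CPM in vehicle and 201, 139 and 124 CPM with FGF19WT (adjusted p = 0.171).

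Cholesterol genes were split. Of 21 tested genes of synthesis and uptake 4 lay wholly above and 3 wholly below vehicle, and the library medians were 0.25, −0.38 and −0.40, beside −0.63, 0.37 and 0.19 in vehicle. Those counts are 19% above and 14.3% below, against 11% and 11.6% of all genes. Idi1, an isomerase of the isoprenoid route, lay wholly below at 41.03, 48.7 and 53.4 CPM in vehicle and 27.2, 20.2 and 3.96 CPM with FGF19WT (adjusted p = 0.203). Sqle, the squalene epoxidase, lay wholly above at 19.1, 30.7 and 29.7 CPM in vehicle and 39.7, 45.5 and 43.5 CPM with FGF19WT (adjusted p = 0.406). Among exporters, Abcg5 and Abcg8 form the pump that sends sterol into bile. Abcg8 stood at 37.5, 44.8 and 40.5 CPM in vehicle and at 96.3, 43.1 and 48.9 CPM with FGF19WT (adjusted p = 0.282), highest in library 1. With FGF19WT libraries 2 and 3 left out Abcg8 was called higher (log2 fold change 1.23, adjusted p = 0.0479). Its partner Abcg5, at 47.6, 58.9 and 62.98 CPM in vehicle and 143, 35.8 and 84.7 CPM with FGF19WT, was not (log2 fold change 1.34, adjusted p = 0.0838). Of 15 apolipoprotein and VLDL genes, 3 lay wholly above and 4 wholly below vehicle, and the library medians were −0.041, −0.81 and −0.76. Apom, a carrier of sphingosine phosphate on HDL, stood at 17.7, 50.8 and 14.1 CPM in vehicle and at 102, 151 and 157 CPM with FGF19WT (log2 fold change 2.31, SE 0.49, adjusted p = 0.125). Apob, the core protein of VLDL, stood at 1206, 906 and 949 CPM in vehicle and at 752, 434 and 272 CPM with FGF19WT (log2 fold change −1.07, SE 0.38, adjusted p = 0.189).

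Genes of liver zonation separated FGF19WT library 1 from libraries 2 and 3 most clearly. Hepatocytes near the central vein receive Wnt signals and make glutamine, whereas those near the portal vein make urea and glucose. In 13 tested pericentral genes the library medians were −0.52, 2.83 and 3.09, and in 14 Wnt feedback genes they were −0.13, 3.74 and 4.08. In 12 periportal genes they were 0.29, −5.56 and −5.00, and in 8 urea cycle genes −0.019, −2.44 and −2.27. None of these genes passed the test in edgeR over the 9 libraries. At an unadjusted p under 0.05 in edgeR 8 pericentral and 12 Wnt feedback genes were higher and 1 urea cycle gene was lower, and 0 periportal genes were either. DESeq2's Wald test called 8 pericentral and 11 Wnt feedback genes higher and 0 of the others, and limma called 0 in each list. Axin2, a Wnt feedback inhibitor, stood at 6.18, 5.08 and 3.15 CPM in vehicle and at 2.403, 118 and 102 CPM with FGF19WT (log2 fold change 3.95, SE 1.09, adjusted p = 0.135). Lgr5, a receptor for R-spondins, stood at 3.91, 3.72 and 4.25 CPM in vehicle and at 2.15, 55.8 and 64.7 CPM with FGF19WT (log2 fold change 3.37, SE 0.93, adjusted p = 0.135). For both, library 1 was lower than every vehicle library and libraries 2 and 3 were far higher. Cps1, the entry enzyme of the urea cycle, ran opposite, at 1903, 1155 and 1669 CPM in vehicle and 2838, 40.1 and 32.9 CPM with FGF19WT (log2 fold change −0.70, SE 1.36, adjusted p = 0.8). Arg1, the last enzyme of that cycle, did so too, at 1313, 1190.4 and 1331 CPM in vehicle and 1818, 48.5 and 37.1 CPM with FGF19WT (adjusted p = 0.67). With FGF19WT library 1 alone the fitted sign was reversed for Axin2, Lgr5, Cps1 and Arg1 (log2 fold change −0.998, adjusted p = 0.801 for Axin2 and log2 fold change 0.85, adjusted p = 0.552 for Cps1). Members that kept 1 direction in all 3 libraries were few. Slc1a4, an amino acid exchanger, stood at 5.66, 5.93 and 5.92 CPM in vehicle and at 7.77, 233 and 160.1 CPM with FGF19WT (adjusted p = 0.125). Cyp1a2, a pericentral oxidase, stood at 218, 204 and 91.6 CPM in vehicle and at 262, 1133 and 1397 CPM with FGF19WT (adjusted p = 0.134). Slc25a13, the citrin carrier that feeds the urea cycle, lay wholly below at 194, 158 and 147 CPM in vehicle and 117, 137 and 96.1 CPM with FGF19WT (adjusted p = 0.209).

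Genes of glucose and amino acid metabolism divided the libraries in a like way. In 12 gluconeogenesis genes the library medians were −0.026, −0.92 and −1.45, with 0 wholly above and 2, 16.7%, wholly below vehicle, against 11.6% below of all genes. Pck1, which commits oxaloacetate to glucose, stood at 2713, 1231 and 2511 CPM in vehicle and at 1993, 43.3 and 49.7 CPM with FGF19WT (log2 fold change −1.63, SE 1.27, adjusted p = 0.499). G6pc, which releases free glucose, was lowest in library 1, at 155, 392 and 98.1 CPM in vehicle and 11.7, 134 and 57.6 CPM with FGF19WT (log2 fold change −1.67, SE 0.78, adjusted p = 0.291). Pcx, the pyruvate carboxylase, lay wholly below vehicle at 497, 759 and 622 CPM in vehicle and 452, 309.9 and 252 CPM with FGF19WT (adjusted p = 0.142). Of 19 genes of glycolysis and glucose entry 4 lay wholly above and 4 wholly below vehicle, and the library medians were −0.068, −0.46 and −1.20. Their summed level was 7261, 9605 and 7599 CPM in vehicle and 6315, 3526 and 3044 CPM with FGF19WT. Eno1, an enolase, lay wholly below, at 350.4, 490.2 and 417 CPM in vehicle and 276, 264 and 159 CPM with FGF19WT (adjusted p = 0.142). The glycolytic regulator Pfkfb3 lay wholly above, at 5.55, 6.71 and 7.61 CPM in vehicle and 8.37, 46.5 and 24.6 CPM with FGF19WT (adjusted p = 0.136). Pkm, the pyruvate kinase form of non-hepatic and growing tissue, also lay wholly above, at 16.5, 15.9 and 20.1 CPM in vehicle and 20.3, 71.6 and 44.6 CPM with FGF19WT (adjusted p = 0.168). In the methionine cycle, library medians over 12 genes were −0.033, −1.63 and −1.59. Bhmt, which remethylates homocysteine, lay wholly below vehicle, at 11392, 8557 and 9729.8 CPM in vehicle and 3646, 318 and 217 CPM with FGF19WT (adjusted p = 0.195). Gnmt, which consumes surplus methyl groups, was within the vehicle range in library 1 only, at 1107, 1315 and 1175 CPM in vehicle and 1131, 77.6 and 46.6 CPM with FGF19WT (adjusted p = 0.431).

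**Figure D4:**
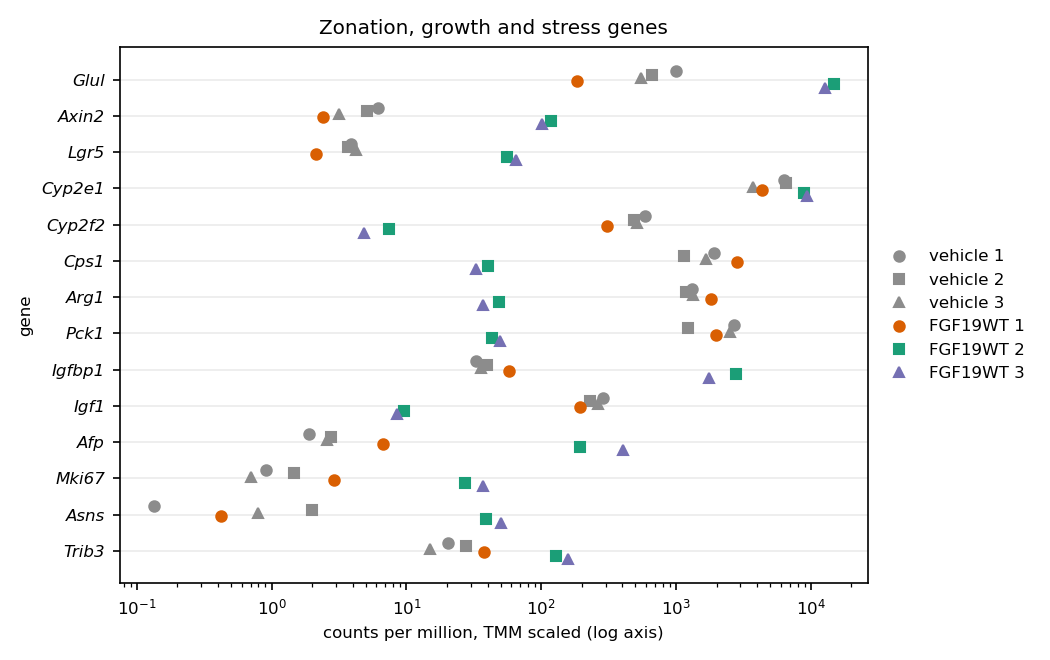
Levels in CPM (log axis) of 14 genes of zonation, hepatic metabolism, growth and stress, one row a gene and one symbol a library. FGF19WT library 1 sits at or above vehicle for Cps1 (2838 CPM) and Arg1 while libraries 2 and 3 sit far below, and the order is turned for Glul, Axin2 and Lgr5.

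Cell cycle genes, nearly silent in adult liver, stood higher with FGF19WT. Of 39 tested genes 0 passed in edgeR, 20 lay wholly above and 1 wholly below vehicle, and the library medians were 0.45, 3.03 and 2.97. At an unadjusted p under 0.05 in edgeR 25 were higher and 1 lower, DESeq2's Wald test called 22 higher and 0 lower, and limma called 0. Mki67 (ENSMUSG00000031004, chromosome 7, 135689784 to 135716361), a marker of dividing cells, stood at 0.908, 1.48 and 0.704 CPM in vehicle and at 2.92, 27.2 and 37.1 CPM with FGF19WT (log2 fold change 4.44, SE 0.81, adjusted p = 0.0986). Ccnb2, a cyclin of mitosis named after its values were seen, stood at 0.414, 0.249 and 0.409 CPM in vehicle and at 1.33, 14.8 and 19.5 CPM with FGF19WT (log2 fold change 5.04, SE 0.997, adjusted p = 0.112). In both, library 1 was above every vehicle library and libraries 2 and 3 were higher again. With FGF19WT library 1 alone Mki67 was not called (log2 fold change 1.502, adjusted p = 0.358). Genes of mitosis such as Plk1, Cdc20 and Aurkb lay wholly above vehicle, whereas Mcm2, a helicase subunit loaded before replication, overlapped at 2.203, 3.65 and 3.81 CPM and 2.67, 6.55 and 4.43 CPM (adjusted p = 0.496). Pcna, the replication clamp, overlapped as well, at 25.98, 26.5 and 26.8 CPM in vehicle and 27.7, 22.4 and 22.97 CPM with FGF19WT.

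The promoters of Mki67 and Ccnb2 are printed because these transcripts stood together above vehicle; capitals mark CCAAT, read by NF-Y, and TTTGAA, the cell cycle homology letters read by the DREAM complex, each on either strand as CCAAT or ATTGG and as TTTGAA or TTCAAA. They are the RefSeq windows on GRCm38.p6 at chr7:135716330-135716629 and chr9:70421505-70421804, minus strand, 5′ to 3′.
Mki67: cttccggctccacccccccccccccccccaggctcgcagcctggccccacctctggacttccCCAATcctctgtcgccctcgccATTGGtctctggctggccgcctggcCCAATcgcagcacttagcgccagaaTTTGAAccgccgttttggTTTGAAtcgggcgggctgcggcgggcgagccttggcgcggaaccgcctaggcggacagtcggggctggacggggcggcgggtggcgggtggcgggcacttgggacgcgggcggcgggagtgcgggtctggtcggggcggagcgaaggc
Ccnb2: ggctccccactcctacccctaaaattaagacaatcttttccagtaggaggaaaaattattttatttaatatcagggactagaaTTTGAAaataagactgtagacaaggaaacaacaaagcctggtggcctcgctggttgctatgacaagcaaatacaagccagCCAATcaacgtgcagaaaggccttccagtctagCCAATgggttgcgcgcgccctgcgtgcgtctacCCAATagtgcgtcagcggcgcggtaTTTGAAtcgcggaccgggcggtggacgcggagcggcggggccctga
Each window holds 5 matches. Of the 39 cell cycle genes 31 had a promoter in the table; 23 of these held CCAAT, 74.2%, against 12289 of 32851 promoters, 37.4%. TTTGAA was held by 13 of the 31, 41.9%, against 5878 of all promoters, 17.9%. The listed genes again gave only the promoter nearest the annotated start, unlike the full set, and matches say nothing of binding.

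Ribosomal protein genes, needed for growth, stood higher in all 3 FGF19WT libraries. Of 30 cytosolic ribosomal protein genes 0 passed in edgeR. Wholly above vehicle lay 26, 86.7%, against 11% of all genes, and 0 lay wholly below. The library medians were 0.33, 0.97 and 1.34. At an unadjusted p under 0.05 in edgeR 27 were higher and 0 lower, DESeq2's Wald test called 20 higher and 0 lower, and limma called 0. Rpl3, a subunit at the peptide-forming centre, stood at 157, 152 and 165 CPM in vehicle and at 285, 295 and 296 CPM with FGF19WT (log2 fold change 0.88, SE 0.16, adjusted p = 0.0924), even across the 3 FGF19WT libraries. Rpl35 stood at 102, 109 and 100.03 CPM in vehicle and at 132, 246 and 440.1 CPM with FGF19WT (adjusted p = 0.133), with library 3 highest. Ribosomal protein genes have many processed pseudogenes, so some of their reads may be shared between copies. CCGGAAG, the letters of an ETS site, were held by 6 of 21 ribosomal protein promoters in the table, 28.6%, against 2910 of 32851, 8.86%. The same limits on the promoter sets and on binding hold for these letters. Ribosome assembly factors differed less, with 4 of 22 wholly above vehicle and library medians of −0.015, 0.19 and 0.11. Afp, the fetal albumin relative used as a liver tumour marker, stood at 1.896, 2.78 and 2.58 CPM in vehicle and at 6.67, 195 and 407 CPM with FGF19WT (log2 fold change 6.39, SE 1.31, adjusted p = 0.124). H19, an imprinted fetal RNA, stood at 1.44, 1.26 and 1.25 CPM in vehicle and at 5.304, 2.84 and 23.8 CPM with FGF19WT (log2 fold change 3.01, SE 0.79, adjusted p = 0.129). Both lay wholly above vehicle. Of 17 tested oncofetal genes 5 lay wholly above and 3 wholly below, the library medians were 0.57, 0.92 and −0.24, and Igf2 did not pass the low-count filter. Ccnd1, the G1 cyclin, was within the vehicle range in library 1 and above it in the others, at 15.1, 25.6 and 17.9 CPM in vehicle and 19.5, 49.6 and 109 CPM with FGF19WT (adjusted p = 0.199). Cdkn1a, which encodes the inhibitor p21, overlapped at 28.7, 15.9 and 14.98 CPM and 6.53, 53.98 and 34.8 CPM (adjusted p = 0.619).

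Stress programmes differed by branch. The integrated stress response, in which ATF4 raises amino acid synthesis, had 18 tested genes with 5 wholly above and 2 wholly below vehicle, and library medians of −0.092, 2.16 and 1.67. Trib3, a pseudokinase target of ATF4, stood at 20.5, 27.6 and 14.9 CPM in vehicle and at 37.7, 128 and 158 CPM with FGF19WT (log2 fold change 2.36, SE 0.59, adjusted p = 0.127). Asns, the asparagine synthetase, stood at 0.134, 1.99 and 0.793 CPM in vehicle and at 0.425, 38.8 and 50.7 CPM with FGF19WT (log2 fold change 4.95, SE 1.53, adjusted p = 0.154), high in libraries 2 and 3 only. Slc7a11, the cystine importer, was near 0 in vehicle at 0.0534, 0 and 0 CPM and stood at 0.879, 1.51 and 0.522 CPM with FGF19WT (adjusted p = 0.112). Chaperones of the endoplasmic reticulum had library medians of 0.044, 0.45 and 0.07 over 17 genes, and Hspa5, the sensor chaperone BiP, overlapped at 359, 290.01 and 354 CPM and 292, 468 and 224 CPM (adjusted p = 0.963). Sdf2l1, a cofactor of BiP, lay wholly above vehicle at 2.95, 2.59 and 2.85 CPM in vehicle and 3.09, 16.5 and 18.9 CPM with FGF19WT (adjusted p = 0.138). Targets of NRF2, the antioxidant regulator, had library medians of −0.11, 0.50 and 0.43 over 16 genes, with Nqo1, a quinone reductase, at 11.8, 17.9 and 13.2 CPM in vehicle and 17.5, 23.99 and 61.4 CPM with FGF19WT (adjusted p = 0.189). Of 12 heat shock genes 2, 16.7%, lay wholly above and 1, 8.33%, wholly below vehicle, against 11% and 11.6% of all genes.

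Sex-biased liver genes are set by the rhythm of growth hormone. Of 16 male-biased genes 0 lay wholly above and 7 wholly below vehicle, with library medians of −0.42, −0.98 and −2.33. Of 14 female-biased genes 4 lay wholly above and 0 below, with library medians of 2.38, −0.15 and −0.47, and the vehicle libraries had medians of 1.24, −0.0092 and −0.35 against the other vehicle libraries. Cyp4a12a, an androgen-dependent fatty acid hydroxylase, stood at 309, 78.96 and 167 CPM in vehicle and at 5.201, 0.555 and 0 CPM with FGF19WT (log2 fold change −6.59, SE 1.60, adjusted p = 0.126). In limma the adjusted p of Cyp4a12a was 0.0051 with a pseudocount of 1 and 0.0296 with 0.1. Cyp3a16, a female-biased steroid hydroxylase, stood at 2.52, 0.571 and 1.01 CPM in vehicle and at 21.7, 148 and 217 CPM with FGF19WT (log2 fold change 6.55, SE 1.01, adjusted p = 0.0702), and in limma its adjusted p was 0.0351 with a pseudocount of 1 and 0.0327 with 0.1. Both genes have near-identical neighbours, so their split of reads is uncertain. Igf1, the main growth hormone target, lay wholly below vehicle at 289, 231 and 263 CPM in vehicle and 195, 9.62 and 8.48 CPM with FGF19WT (log2 fold change −1.88, SE 1.06, adjusted p = 0.361). Igfbp1, an IGF binding protein that rises when insulin signalling is low, lay wholly above at 32.99, 39.9 and 35.9 CPM in vehicle and 57.8, 2787 and 1763 CPM with FGF19WT (log2 fold change 5.40, SE 1.20, adjusted p = 0.125). For both, library 1 differed little from vehicle and libraries 2 and 3 by far more. Ghr, the growth hormone receptor, stood at 298, 288 and 280.04 CPM in vehicle and 281, 132 and 86.9 CPM with FGF19WT (adjusted p = 0.298), while Stat5b, its signal carrier, overlapped at 41.4, 34.8 and 43.2 CPM and 40.2, 48.9 and 38.1 CPM (log2 fold change 0.092, SE 0.15, adjusted p = 0.752).

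Drug-handling enzymes differed by gene and by list. Cyp2a5, a coumarin hydroxylase, lay wholly above vehicle at 553, 740.1 and 442 CPM in vehicle and 1459, 2242 and 4599.7 CPM with FGF19WT (adjusted p = 0.128). Cyp3a11, the chief mouse drug oxidase of its family, stood at 3481, 2584 and 2503 CPM in vehicle and 2928, 1212 and 1585 CPM with FGF19WT (adjusted p = 0.381). Gsta4, a glutathione transferase for lipid aldehydes, lay wholly above at 80.3, 46.9 and 51.9 CPM in vehicle and 94, 210.3 and 345 CPM with FGF19WT (adjusted p = 0.125). Of 18 Cyp2 and Cyp3a genes 2, 11.1%, lay wholly above and 1, 5.56%, wholly below, against 11% and 11.6% of all genes. Their library medians were 0.33, −0.62 and −0.20. Of 21 conjugation enzymes 4, 19%, lay wholly above and 0 below, and the library medians were −0.00046, 0.25 and 0.73. At an unadjusted p under 0.05 in edgeR 9 conjugation enzymes were higher and 0 lower. DESeq2's Wald test called 7 of them higher and 0 lower, and edgeR and limma called 0.

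The next 3 genes are outside these lists and came from the rule that takes the smallest unadjusted p among genes without overlap. Adrb3, the β3-adrenergic receptor of fat tissue, stood at 1.38, 0.996 and 1.07 CPM in vehicle and at 10.2, 5.7 and 18.8 CPM with FGF19WT (log2 fold change 3.33, SE 0.47, adjusted p = 0.0583). Gm45470, antisense to Adrb3, stood at 1.52, 3.02 and 1.96 CPM in vehicle and at 17.2, 6.58 and 17.2 CPM with FGF19WT (log2 fold change 2.66, SE 0.43, adjusted p = 0.08). The pair lies on opposite strands of the same stretch, so their reads cannot be told apart. With FGF19WT libraries 2 and 3 left out, Adrb3 was called higher (log2 fold change 3.16, adjusted p = 0.0364), and in limma over all libraries its adjusted p was 0.0525 with a pseudocount of 1 and 0.0327 with 0.1. Gstp3, a glutathione transferase, lay wholly above vehicle at 15.2, 26.6 and 17.7 CPM in vehicle and 50.3, 51.01 and 72.6 CPM with FGF19WT (log2 fold change 1.54, SE 0.25, adjusted p = 0.08), and in limma its adjusted p was 0.0351 with a pseudocount of 1 and 0.0452 with 0.1.

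Acute phase, complement and plasma carrier genes had lower medians in FGF19WT libraries 2 and 3, though Ahsg and Serpina6 stood higher. Over 22 acute phase genes the library medians were −0.067, −1.70 and −1.71, and vehicle library 3 stood above the other vehicle libraries, with medians of −0.60, −0.39 and 0.92 for vehicle. Saa1, serum amyloid A, stood at 136, 119 and 780.4 CPM in vehicle and at 61.7, 18.5 and 7.198 CPM with FGF19WT (log2 fold change −3.57, SE 1.22, adjusted p = 0.18). Orm2, an orosomucoid, stood at 49.2, 116 and 294 CPM in vehicle and at 24, 13.7 and 3.87 CPM with FGF19WT (adjusted p = 0.168). Both lay wholly below vehicle, and both belong to families of near-identical copies. Of 23 complement and coagulation genes 1 lay wholly above and 6 wholly below (library medians 0.083, −0.67 and −0.86), with C9, the pore-forming complement component, at 188, 171 and 293 CPM in vehicle and 65.01, 3.71 and 2.23 CPM with FGF19WT (adjusted p = 0.197). Over 10 genes of albumin and plasma carriers the library medians were 0.13, −0.62 and −0.53. Of these 10, 5 log2 fold changes were positive and 5 negative, and 2 genes lay wholly above vehicle and 0 below. Albumin, Alb, overlapped at 109776, 135959.8 and 79547 CPM and 169622, 78702 and 81865 CPM (log2 fold change 0.022, SE 0.40, adjusted p = 0.982). Ahsg, fetuin A, lay wholly above at 3411, 3578 and 3743 CPM in vehicle and 5220.1, 6479 and 6611 CPM with FGF19WT (adjusted p = 0.142). Serpina6, the corticosteroid carrier, lay wholly above as well, at 157, 336 and 229 CPM in vehicle and 749, 592 and 441 CPM with FGF19WT (adjusted p = 0.15). Hamp, the iron hormone hepcidin, stood at 656, 216 and 629.99 CPM in vehicle and at 559, 8.28 and 9.94 CPM with FGF19WT (adjusted p = 0.644), low in libraries 2 and 3 only. The liver hormone Fgf21, which shares β-klotho with FGF19, spread widely in vehicle and overlapped, at 22.6, 75.4 and 6.78 CPM in vehicle and 6.83, 49.96 and 38.5 CPM with FGF19WT (log2 fold change −0.14, SE 0.98, adjusted p = 0.95). Of 16 clock genes 0 lay outside the vehicle range in 1 direction in all 3 libraries, and Dbp, an output gene of the clock, stood at 77.5, 164 and 111 CPM in vehicle and 227, 24.05 and 74.5 CPM with FGF19WT (adjusted p = 0.935). The time of day of tissue collection is not given in the sources used here.

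Markers of Kupffer, stellate, sinusoidal endothelial, T and NK cells had lower medians in FGF19WT libraries 2 and 3. Erythroid markers did not share this, and recruited macrophage markers had a lower median in library 3 but not in library 2. Kupffer cell markers summed to 277, 346 and 414 CPM in vehicle and 282, 92.9 and 42.96 CPM with FGF19WT, and of 14 genes 0 lay wholly above and 4 wholly below vehicle. C1qa, a complement subunit made by macrophages, stood at 31.04, 32.6 and 39.97 CPM in vehicle and at 24.6, 14.9 and 8.21 CPM with FGF19WT (log2 fold change −1.12, SE 0.36, adjusted p = 0.168). Timd4, a defining marker of resident Kupffer cells, was at 0 in libraries 2 and 3 and at 2.77 CPM in library 1, against 1.76, 2.05 and 3.12 CPM in vehicle. Stellate cell markers had library medians of −0.43, −2.68 and −4.15 over 12 genes, 8 of them wholly below and 1 wholly above vehicle. Dcn, the proteoglycan decorin, stood at 186, 159 and 156 CPM in vehicle and at 101, 5.03 and 0.769 CPM with FGF19WT (adjusted p = 0.385). Reln, which encodes reelin, was the exception at 44.6, 42.96 and 36.2 CPM in vehicle and 47.9, 175 and 212 CPM with FGF19WT (log2 fold change 1.81, SE 0.47, adjusted p = 0.128). Sinusoidal endothelial markers had library medians of 0.33, −2.26 and −3.61 over 14 genes, with Lyve1, a hyaluronan receptor, at 13.8, 9.87 and 10.7 CPM in vehicle and 7.501, 1.46 and 0.276 CPM with FGF19WT (adjusted p = 0.323). T and NK cell markers had library medians of −0.67, −2.21 and −1.72, lower in library 1 too, with 8 of 14 genes wholly below and 0 above. Their sum was low, at 23.7, 12.1 and 13.2 CPM in vehicle and 7.88, 4.86 and 9.11 CPM with FGF19WT. Cd8a, of cytotoxic T cells, stood at 6.02, 2.62 and 2.904 CPM in vehicle and at 0.308, 0.148 and 0.406 CPM with FGF19WT (log2 fold change −3.74, SE 0.53, adjusted p = 0.0583), low in all 3 libraries. Prf1, the cytotoxic perforin, did not follow, at 0.187, 0.717 and 0.345 CPM in vehicle and 0.337, 2.13 and 5.05 CPM with FGF19WT (adjusted p = 0.206). Erythroid markers had library medians of −1.02, 0.51 and 1.25 over 8 genes, and Hba-a1, an α-globin, stood at 95.4, 119.6 and 85.5 CPM in vehicle and 48.4, 161 and 222 CPM with FGF19WT, highest in library 3. Alas2, the erythroid haem enzyme, lay wholly below at 42.2, 70.9 and 41.8 CPM in vehicle and 23.9, 16.3 and 18.3 CPM with FGF19WT. Recruited macrophage markers had library medians of −0.20, 0.34 and −1.53 over 12 genes, 6 of which were above all vehicle libraries in library 2 and 11 below them in library 3. What part the changed share of these cells' transcripts has in the other results was not tested.

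Remaining immune and duct genes were measured with the same lists. Neutrophil markers differed most among vehicle libraries, with medians of −2.77, 1.22 and 2.07, beside −0.38, −1.87 and −3.25 with FGF19WT, and 1 of 11 lay wholly below vehicle. Bile duct markers had library medians of 0.092, −0.43 and −1.61 over 9 genes. Prom1, a duct and progenitor marker, stood at 0.734, 0.2196 and 1.52 CPM in vehicle and at 6.11, 41.3 and 20.4 CPM with FGF19WT (log2 fold change 4.77, SE 0.85, adjusted p = 0.0924), above vehicle in each library. Epcam, another duct marker, stood at 0.988, 0.6296 and 0.345 CPM in vehicle and at 0.601, 0.185 and 0.116 CPM with FGF19WT (adjusted p = 0.488). In 14 antigen presentation genes 0 lay wholly above and 5 wholly below, with H2-Eb1, a class II chain, at 19.7, 27.1 and 29.8 CPM in vehicle and 18.3, 8.55 and 9.201 CPM with FGF19WT (adjusted p = 0.138). Among 20 interferon genes 3 lay wholly above, 15%, and 1 wholly below, 5%, against 11% and 11.6% of all genes. The library medians were 0.43, −0.54 and −0.70, higher in library 1 and lower in the others, and 13 of the 20 fitted log2 fold changes were negative. Among the 3 above vehicle, Oas1a, an antiviral synthetase, stood at 3.298, 2.39 and 3.595 CPM in vehicle and at 7.24, 14.7 and 20.7 CPM with FGF19WT (log2 fold change 2.20, SE 0.43, adjusted p = 0.112). Of 17 cytokine and chemokine genes 0 lay wholly above and 5 wholly below, and Vcam1, a leukocyte adhesion molecule, stood at 13.5, 15.3 and 13.9 CPM in vehicle and 10.8, 4.18 and 3.03 CPM with FGF19WT (adjusted p = 0.182). Collagens and matrix genes were lowest in library 3, with library medians of −0.46, −0.55 and −3.88.

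**Figure D5:**
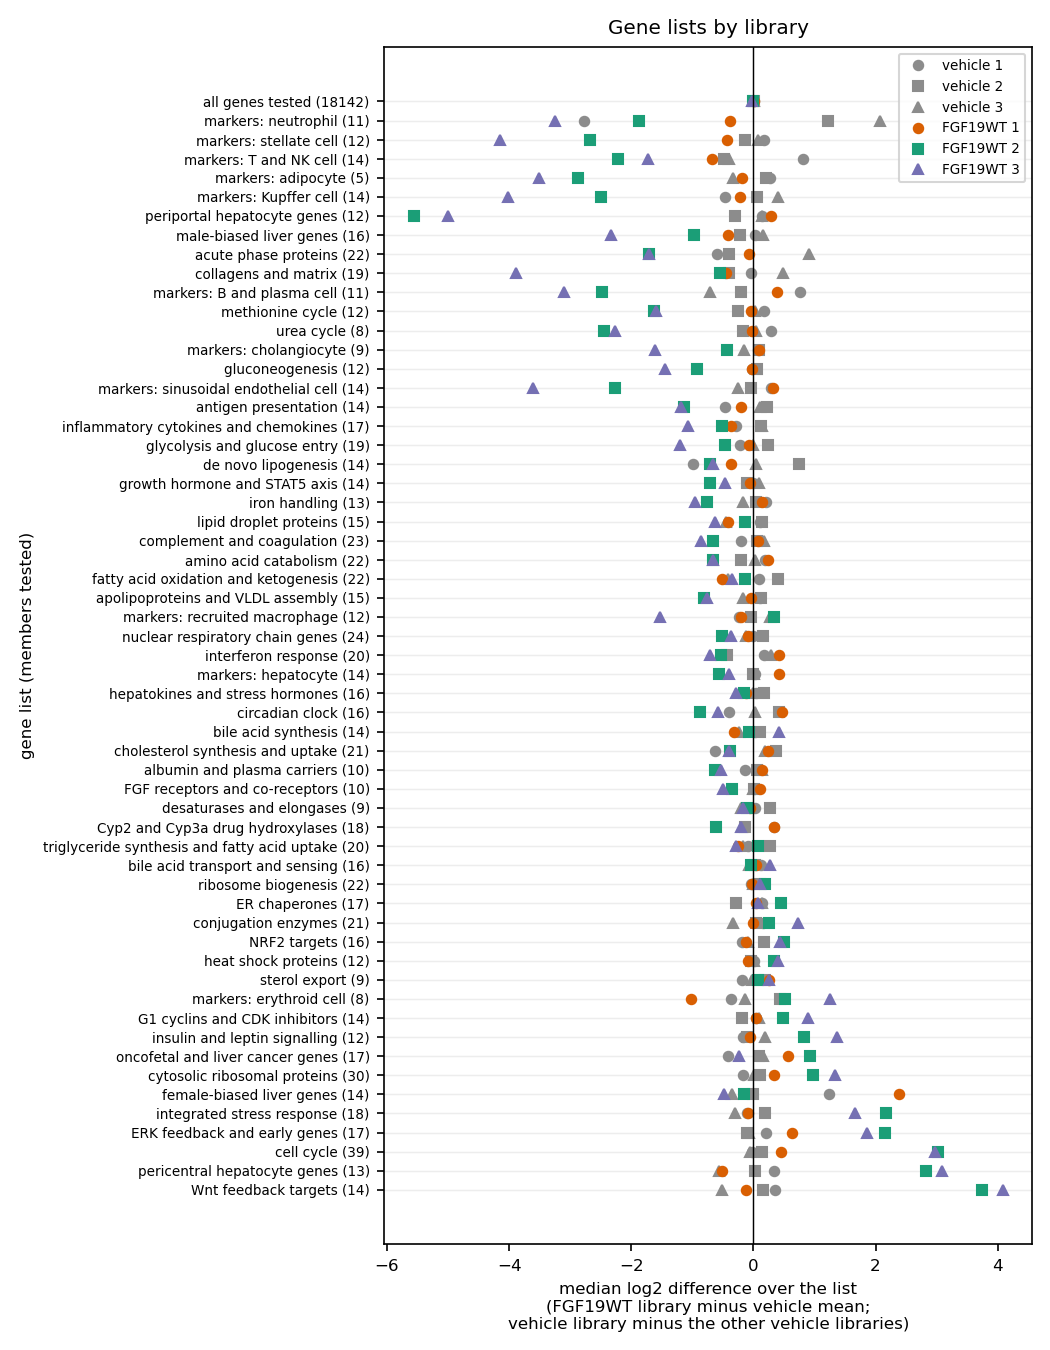
Median log2 difference of each library from vehicle for every gene list with at least 5 tested members; each FGF19WT library is compared with the vehicle mean and each vehicle library with the other vehicle libraries. FGF19WT libraries 2 and 3 lie near 4 for Wnt feedback genes (3.74 and 4.08) and near −5 for periportal genes (−5.56 and −5.00), where library 1 lies at −0.13 and 0.29.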

How the data were processed

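Total RNA of whole liver was sequenced. The deposited table gives, per the file headers, an expected count and an FPKM value for each gene and library, both made by the authors, and 28517 genes are listed. The submitters' processing notes name Bowtie 0.12.2, HISAT2 2.0 and StringTie 1.3.0 with no role, and the build mm8. All 28517 gene identifiers and starts match GENCODE M21 on GRCm38, whose coordinates are used here. The authors' values were used as deposited, and counts were rounded to whole numbers. How multi-mapping reads and strand were treated is not given in the sources used here.

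The test of counts was edgeR's quasi-likelihood test (edgeR 4.0.16 under R 4.3.3): robust, TMM factors, edgeR's low-count filter, all 9 libraries with group as the only term, 6 residual degrees of freedom, Benjamini-Hochberg adjustment over 18142 genes. The biological coefficient of variation was 0.471. Independent counts were simulated with the means and per-gene spread of all 9 libraries (17638 genes). The shifted genes were drawn only from those with a mean of at least 1 CPM, so the rates do not cover lower genes. Of the genes shifted 4-fold 64% were recovered, and of those shifted 8-fold 87%, and 6 unshifted genes were called. The simulation did not hold the shared split of FGF19WT library 1 from libraries 2 and 3, so these rates need not apply to the real libraries. Members of the 58 gene lists, 844 tested genes, and all choices of genes were made with earlier results of these data known. The named genes are 77 fixed genes, every called gene, up to 10 per direction with the smallest p among non-overlapping genes of at least 5 CPM, the smallest-p non-overlapping member of each list, and genes with the largest spread among FGF19WT libraries. Other list members named were chosen after their values were seen. A few genes under the rule are not reported here. Floors and ranges cover counting error only. Replicate numbers did not pair the libraries. Alternatives were other low-count filters, DESeq2 size factors, DESeq2 1.42.0, limma 3.58.1 on log2(FPKM + 1) and log2(FPKM + 0.1) of genes with at least 1 FPKM, a fit of the 6 libraries, a replicate block, counts divided by 4, each library left out, and FGF19WT libraries 2 and 3 left out together.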

Additional observations from a re-analysis of the deposited data

How the results depend on the processing

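The count of called genes depended on the error model and on single libraries. Against 20 called, 5 higher and 15 lower, edgeR gave 26 (7 and 19) without the low-count filter, 14 (4 and 10) at 5 CPM in 3 libraries, 20 (5 and 15) with DESeq2 size factors and 18 (5 and 13) with counts divided by 4. DESeq2's Wald test called 1743 (1141 higher and 602 lower, 220 genes without an adjusted p), including all 20. Limma called 69 (14 and 55) on log2(FPKM + 1) and 45 (12 and 33) on log2(FPKM + 0.1). In the 6 libraries of these groups edgeR called 1 gene, Fam124a, 0 higher and 1 lower, with 1610 higher and 913 lower at an unadjusted p under 0.05. Leaving out 1 library at a time gave 0 to 5221 called, 0 to 2500 higher and 0 to 2721 lower. With FGF19WT libraries 2 and 3 both left out 11 were higher and 9 lower. Each called gene was called in 1 of the 9 leave-one-out fits, apart from Gm2788 and Clstn3, called in 2. The cause was not tested.

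Taking the replicate number as a block, edgeR called 1 gene, 9030619P08Rik, 1 higher and 0 lower, with 1749 higher and 1488 lower at an unadjusted p under 0.05. Same-numbered libraries correlated at −0.048 to 0.147, so the numbers are not taken as pairs. Under the block the sign turned for Fgf21 (0.41), Alb (−0.042), Cyp46a1 (−1.91) and Hamp2 (−1.68).

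No called gene turned its sign in any setting. Among named genes that were not called, limma with a pseudocount of 1 turned Abca1 (0.0047), Fgf21 (0.086), Alb (−0.016), Mir8114 (−1.83), Cyp46a1 (−1.25) and Hamp2 (−2.31), and with 0.1 it gave 0.0043, 0.087, −0.016, −2.90, −2.60 and −2.42. Without FGF19WT libraries 2 and 3 the log2 fold changes that turned were Cyp7b1 −0.032, Abcb11 −0.27, Slc10a1 0.30, Nr1h4 0.032, Klb 0.16, Plin2 −0.43, Srebf1 0.60, Abca1 0.10, Mttp −0.17, Glul −1.99, Cyp2e1 −0.33, Axin2 −0.998, Lgr5 −0.88, Cps1 0.85, Otc 0.34, Arg1 0.51, Slc2a2 0.043, Cbs 0.18, Cyp3a11 0.037, Mcm2 −0.27, Cdkn1a −1.60, Per1 0.71, Per2 0.75, Dbp 0.95, Hamp 0.16, Asns −1.19, Mir8114 −2.04, Sept2 −1.93, Pla2g2a −0.087 and Lrtm1 1.18. Leaving out 1 library turned these genes, whose values ranged as follows: Hspa5 −0.38 to 0.19, Cyp46a1 −5.70 to 1.11, Abcb11 −0.22 to 0.24, Nr0b2 −0.053 to 0.68, Srebf1 −0.86 to 0.11, Stat5b −0.028 to 0.16, Per1 −0.99 to 0.17, Per2 −1.07 to 0.20, Dbp −1.27 to 0.35, Fgf21 −0.63 to 1.11, Cldn2 −0.82 to 0.82, Mup18 −13.91 to 0.17, Sept2 −2.91 to 2.30, Abca1 −0.086 to 0.11, Mttp −0.17 to 0.12, Gdf15 −0.055 to 0.33, Alb −0.44 to 0.21, Cyp7a1 −0.98 to 0.22, Dmbt1 −2.94 to 6.51, Hamp2 −4.95 to 1.56, Plin2 −0.36 to 0.54, Mir8114 −3.04 to 2.74 and Lrtm1 −6.00 to 0.19. With 3 libraries a group, an exact permutation test of a single value cannot give a two-sided p under 0.1, and 12 counts, about 0.148 to 0.176 CPM in these libraries, limit what a 0 shows.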

Other observations

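Several genes differed widely between single libraries. Pla2g2a, a secreted phospholipase annotated as a polymorphic pseudogene in mouse, stood at 0.187, 0 and 0 CPM in vehicle and at 0.0586, 24.4 and 112 CPM with FGF19WT. Dmbt1, a secreted mucin-like protein of ducts, stood at 0.2003, 0.176 and 0.243 CPM in vehicle and at 37.9, 0.0494 and 0 CPM with FGF19WT, present in library 1 only. Lrtm1 stood at 27.7, 25.5 and 17.1 CPM in vehicle and at 53.1, 0.0864 and 0.668 CPM with FGF19WT, with library 1 above and libraries 2 and 3 below all vehicle libraries. Cyp46a1, a cholesterol 24-hydroxylase, showed the same order at 14.02, 58.6 and 14.9 CPM in vehicle and 92.5, 0.1604 and 0.987 CPM with FGF19WT. Hamp2, a hepcidin copy with no clear role in iron, did so too, at 242, 109 and 107 CPM in vehicle and 899.6, 2.603 and 7.37 CPM with FGF19WT. Cldn2, a tight junction protein, was near 0 in vehicle library 2 and FGF19WT library 3 and abundant in the rest, at 108, 0.0586 and 114 CPM in vehicle and 84.1, 176 and 0.0145 CPM with FGF19WT.

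Other genes differed in every FGF19WT library and were chosen after their values were seen. Akr1c18, a hydroxysteroid dehydrogenase that inactivates progesterone, stood at 1.07, 1.303 and 0.422 CPM in vehicle and at 21.9, 1049 and 787 CPM with FGF19WT (log2 fold change 9.38, SE 1.63, adjusted p = 0.0924). Adgrf1, an adhesion receptor, stood at 0.0534, 0.176 and 0 CPM in vehicle and at 1.85, 13.3 and 18.04 CPM with FGF19WT (log2 fold change 7.18, SE 1.21, adjusted p = 0.0924). Both lay wholly above vehicle and did not pass the test over 9 libraries in edgeR. Fam124a stood at 10.9, 12.02 and 9.95 CPM in vehicle and at 0.659, 0.629 and 0.551 CPM with FGF19WT, even across both groups, and was called over the 6 libraries alone (log2 fold change −4.15, adjusted p = 0.0186 in edgeR) but not over 9 (adjusted p = 0.112).

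By gene class, 208 of 1278 processed pseudogenes lay wholly above vehicle and 98 wholly below, while protein coding genes were 1545 above and 1675 below of 14069. Over all 18142 genes 1994 lay wholly above, 11%, and 2105 wholly below, 11.6%. Of 38 microRNA genes 9 lay wholly above and 1 below, and total RNA counts of such short genes can come from host transcripts. Mir8114, inside Glul on the same strand, stood at 24.1, 20.4 and 13.7 CPM in vehicle and 4.72, 255 and 0.0145 CPM with FGF19WT. Glul itself stood at 999.96, 659 and 549 CPM in vehicle and 185, 14770 and 12685 CPM with FGF19WT. Mir8114 thus did not follow Glul in library 3, and the source of its counts was not tested. The major urinary protein genes are near-identical copies, and Mup18 was at 0 in some libraries of both groups, at 0, 62.8 and 20.3 CPM in vehicle and 0, 34.4 and 0 CPM with FGF19WT, so their single values are uncertain. Adnp, a transcription factor that every cell uses, was listed near 0 in 4 of these 6 libraries, at 0.0668, 47.4 and 45.01 CPM in vehicle and 0.0586, 0.247 and 0.203 CPM with FGF19WT.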
